A study of Mus musculus with 2 samples.

Results

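The transcripts described here are 5 genes of the translation machinery. Rpl7, Rpl31 and Rpl37a encode proteins of the large ribosomal subunit. Eef1b2 encodes a subunit of the exchange factor that reloads the elongation factor eEF1A with GTP, and Snhg6 is a long non-coding RNA gene that carries a small nucleolar RNA. They were chosen by name, and all 5 were found among the 1068 genes analysed here. LβT2 cells, an immortalized mouse line derived from pituitary gonadotropes, were treated at passage 15 with 2 nM GnRH or with vehicle for 40 min. GnRH is the hypothalamic peptide that drives gonadotropin release. Single cells (SCs) were profiled by GEM Drop-seq, a droplet method that tags captured transcripts with unique molecular identifiers (UMIs), by which PCR copies of one molecule are merged. There was 1 library per treatment, from 1 cell line at 1 passage.

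The ribosome translates mRNA into protein, and its many proteins are made in matched amounts. Their mRNAs, with those of several elongation factors and many snoRNA host genes, begin with a pyrimidine-rich stretch known as a 5′ terminal oligopyrimidine tract, through which mTOR signalling controls their translation. Most are abundant in every dividing cell. The assay counted mRNA molecules and did not measure their translation.

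To relate the transcripts to their genes, positions were taken from GENCODE M21 (GRCm38), and all 5 genes lay on chromosome 1. Snhg6 (ENSMUSG00000098234) spans chr1:9941959-9944118 on the minus strand, hosts Snord87 and overlaps 127 bases of Mcmdc2 on the other strand. Rpl7 (ENSMUSG00000043716) spans chr1:16101295-16104662 on the minus strand. Rpl31 (ENSMUSG00000073702) spans chr1:39367842-39371911 on the plus strand, and 420 bases overlap Tbc1d8 on the other strand. Eef1b2 (ENSMUSG00000025967) spans chr1:63176825-63180486 on the plus strand, contains Snora41, and shares 9 bases with Ndufs1. Rpl37a (ENSMUSG00000046330) spans chr1:72711290-72713813 on the plus strand. Use of strand in counting was not given in the sources used here, so reads in the overlaps could not be assigned to one gene with certainty. Tbc1d8 had 283 vehicle and 252 GnRH UMIs and Mcmdc2 had 4 and 2, against 48470 and 48535 for Rpl31 and 2604 and 2722 for Snhg6. The annotation holds 24 pseudogenes named after Rpl31 and 1 named after Rpl7. Copies under other names were not counted for any of the 5 genes. The handling of reads shared with such copies was also not given.

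The start regions of Rpl31, Rpl37a and Eef1b2 are shown because CGGAAG, a sequence that many ETS family factors recognize, occurs in each of them. RefSeq promoter windows (GRCm38.p6) were matched for these 3 of the 5 genes. Each line runs from 60 bases before the annotated RefSeq start to base 20 after it on the plus strand, at chr1:39367791-39367870, chr1:72711200-72711279 and chr1:63176771-63176850, and capitals mark CGGAAG or its reverse complement CTTCCG.
Rpl31: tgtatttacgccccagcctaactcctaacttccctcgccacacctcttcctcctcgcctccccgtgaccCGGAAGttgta
Rpl37a: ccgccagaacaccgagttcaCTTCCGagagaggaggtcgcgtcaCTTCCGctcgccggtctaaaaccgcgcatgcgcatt
Eef1b2: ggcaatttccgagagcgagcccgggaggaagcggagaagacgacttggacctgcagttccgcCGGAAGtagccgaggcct
Counted from 1 at the RefSeq start, the match began at position 10 in Rpl31, at 3 in Eef1b2 and at -40 and -16 in Rpl37a. The RefSeq starts of Rpl31, Rpl37a and Eef1b2 (39367851, 72711260 and 63176831) differ from the starts of the GENCODE spans above. The line shown for Rpl37a ends before its GENCODE start. Both strands were searched, with the sequences already in view. The same 6 letters occurred in 5537 of 32851 RefSeq windows of 300 bases (16.9%) and in 41 of the 70 windows of other ribosomal protein genes (58.6%). Among the bases after the start, the longest run of C and T was CTTTCCCTCCC (11 bases, from position 32) in Rpl31, TCCCTTCCTCTTC (13 bases, from position 24) in Rpl37a and CTTTC (5 bases) in Eef1b2. Set against its GENCODE start, the Rpl37a run would lie across the start and not after it. A run of 11 or more stood after the RefSeq start in 4.89% of all windows and in 19 of the 70 (27.1%). These matches describe the letters and were not tested as binding sites.

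Called cells numbered 1992 after vehicle and 1889 after GnRH, with 1126320 and 1118763 UMIs over the genes analysed, which make up 3.81% of the gene list and are not the depth of the libraries. Median UMIs per cell were 543.5 and 561. Among the gonadotrope markers, Scg2, Inha and Inhbb were analysed and all were detected, with 78958, 2024 and 4001 UMIs in vehicle-treated cells. Cga, Lhb, Fshb and Gnrhr, which define the cell type, were not analysed here. The fibroblast markers Col3a1 and Col5a2 had no UMI in either library, and the leukocyte marker Cxcr4 had 1 in each. As cells of a library are no replicates of a treatment, the comparisons carry no test, and each interval is a 95% interval for counting error only.

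In both treatments the ribosomal protein transcripts were among the most abundant of the genes analysed. Together Rpl7, Rpl31 and Rpl37a held 17.9% of the vehicle UMIs (201486) and 18.4% of the GnRH UMIs (206081). All 5 transcripts held 19.2% and 19.8%. Within single vehicle-treated cells the share of the 3 ribosomal protein transcripts ranged from 2.99% to 35.5%, with a median of 17.5% and 5th and 95th percentiles of 11.8% and 25.1%. Within GnRH-treated cells it ranged from 3.53% to 39.2%, with a median of 18.1% and percentiles of 12.3% and 25.1%. The cells of both treatments overlapped over almost the whole range.

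Rpl37a was the most abundant gene analysed in both libraries. It had 112064 UMIs in vehicle-treated cells, 9.95% of the total (9.89 to 10.01), and 117680 in GnRH-treated cells, 10.5% (10.46 to 10.58). A vehicle-treated cell had a median of 50.5 Rpl37a UMIs (interquartile range 37 to 71) and a GnRH-treated cell 56 (41 to 75). Each UMI stands for 1 transcript whatever its length, so levels of different genes can be set side by side without a length correction. Rpl31 ranked 4th in both libraries, at 4.30% and 4.34%, with medians of 23 and 24 UMIs per cell. Rpl7 followed at rank 5 with 40952 UMIs (3.64%) and 39866 UMIs (3.56%), and a median of 20 UMIs per cell in each. Every cell of both libraries had an Rpl37a UMI. Rpl7 was without a UMI in 2 vehicle-treated cells and 1 GnRH-treated cell, and Rpl31 in 1 and 3.

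Eef1b2 and Snhg6 were less abundant than the ribosomal protein transcripts. Eef1b2 ranked 14th in both libraries, with 12512 UMIs (1.11%) after vehicle and 12559 (1.12%) after GnRH. Its median was 6 UMIs per cell in each. Snhg6 ranked 73rd with 2604 UMIs (0.231%) and 66th with 2722 (0.243%), at a median of 1 UMI per cell. Each step in the order from Rpl37a through Rpl31, Rpl7 and Eef1b2 to Snhg6 was the same in both libraries and larger than the counting intervals.

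To compare cells at equal depth, each was thinned at random to 300 UMIs, which left out 219 vehicle-treated and 108 GnRH-treated cells with fewer. An Rpl7, Rpl31 and Rpl37a UMI then remained in 100% of cells. Thinned cells of both treatments had the same median for Rpl7 (11 UMIs), Rpl31 (13) and Eef1b2 (3), while Rpl37a had 29 in vehicle-treated and 31 in GnRH-treated cells. The share of cells with an Snhg6 UMI was 66.0% (63.9 to 68.1) after vehicle and 70.4% (68.3 to 72.5) after GnRH, and became 47.5% (45.2 to 49.9) and 49.7% (47.4 to 52.1) after thinning, where the intervals overlapped. For Eef1b2 these shares were 97.2% and 98.6%, and 95.04% and 95.06% after thinning. No cell type without these transcripts was present, so UMIs from free RNA could not be measured.

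**Figure D1:**
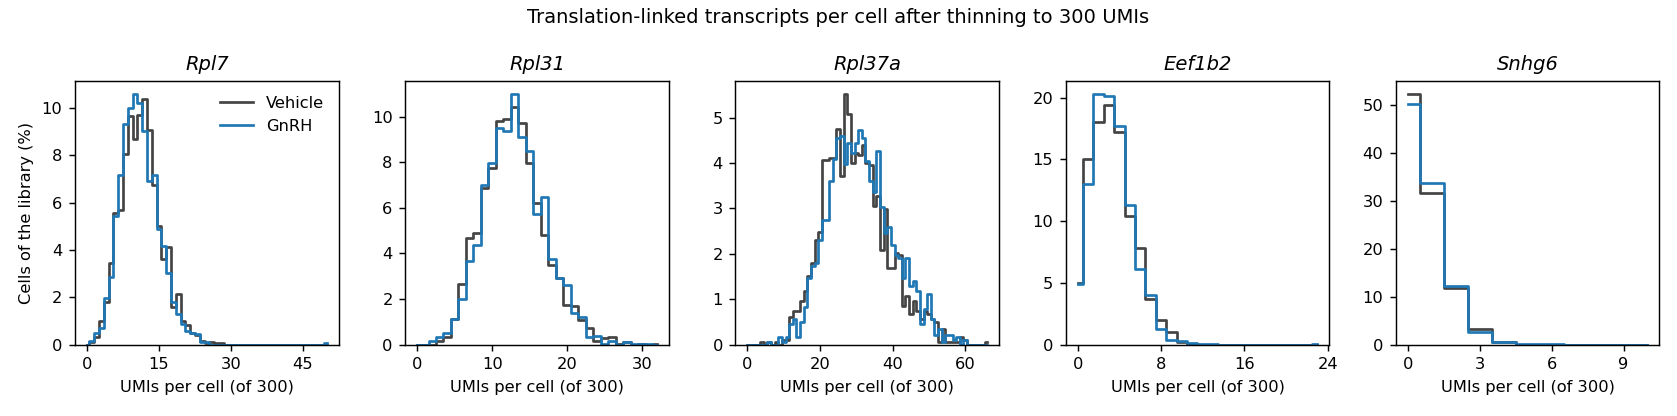
Distribution over cells of the UMIs of each transcript (x axis) after thinning every cell to 300 UMIs, as a percentage of cells (y axis), for 1773 vehicle-treated (grey) and 1781 GnRH-treated cells (blue). The curves of both treatments largely overlap, with a median for Rpl37a of 29 UMIs after vehicle and 31 after GnRH, and with a single GnRH-treated cell at 50 Rpl7 UMIs.

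To investigate whether GnRH altered these transcripts within 40 min, the share of UMIs was compared between the libraries. None of the 5 differed by 1.2-fold or more. Among the 409 genes with at least 100 UMIs over both libraries, 5.87% were at least 1.2-fold higher after GnRH and 14.4% at least 1.2-fold lower, and at 2-fold these figures were 1.22% and 0%. Rpl37a was 1.06-fold higher against the library totals (interval 1.05 to 1.07, log2 ratio 0.08). Rpl7 had a ratio of 0.980 (log2 -0.029, -0.049 to -0.0091) against the library totals, but it stood above 0 when the totals left out the 5 transcripts and Btg2 (0.034), with median-of-ratios factors (0.052) and with TMM factors (0.063). With the same 3 scalings Rpl37a had log2 ratios of 0.14, 0.16 and 0.17. Against the library totals Rpl31, Eef1b2 and Snhg6 had log2 ratios of 0.012, 0.015 and 0.074, with intervals that held 0. None of the 5 reached 1.2-fold with the 3 other scalings either, where 6.85%, 7.09% and 7.58% of all genes were at least 1.2-fold higher and 7.58%, 6.60% and 6.60% at least 1.2-fold lower. With library totals, 1 of 5 thus had an interval above a ratio of 1, against 7.58% of all genes, and 1 of 5 below it, against 37.9%. With TMM factors, median-of-ratios factors or the totals without the 5 transcripts and Btg2, all 5 had an interval above 1, against 16.1%, 13.9% and 13.0% of all genes, and none below it, against 15.2%, 18.3% and 23.2%.

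All genes served as the reference for these ratios. Over the 409 genes the log2 ratio had a median of -0.095, and the early response gene Btg2 alone took 3.00% of GnRH UMIs against 0.0931% of vehicle UMIs. All 5 transcripts lay above the median gene, as did 49.9% of genes, an order that a change of library scaling leaves as it is. Of other abundant genes, Igfbp2 (0.0029) and Cox5b (-0.086) also lay above the median gene and Igfbp5 (-0.14) below. The 3 ribosomal protein transcripts summed to a ratio of 1.03 (1.023 to 1.036). Without a second library per treatment, such differences cannot be told apart from variation between libraries.

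Ratios between the 5 transcripts do not depend on how the libraries are scaled. Rpl37a had 2.31 UMIs for each Rpl31 UMI in vehicle-treated cells and 2.42 in GnRH-treated cells, a log2 difference of 0.069 (0.047 to 0.090). It had 2.74 and 2.95 for each Rpl7 UMI, a log2 difference of 0.11 (0.086 to 0.13). Rpl31 had 1.18 and 1.22 for each Rpl7 UMI (0.041, 0.014 to 0.068). The proportions of the ribosomal protein mRNAs thus differed slightly between the libraries, and these differences depended on how cells were weighted. As a mean over cells, the log2 difference of Rpl37a to Rpl31 was 0.067, of Rpl37a to Rpl7 0.078 and of Rpl31 to Rpl7 0.011. In the shallowest quartile of UMIs per cell they were 0.042, -0.0088 and -0.051. Quartiles were cut in each library on its own. The shallowest one held cells of 90 to 421 UMIs after vehicle and of 81 to 450 after GnRH. The Rpl37a to Rpl31 difference was above 0 in both settings, and the other differences were below 0 in the shallowest quartile. No counting interval was computed for these settings, and depth in the quartile was not matched between libraries. The ratio of Rpl7 to Eef1b2 was 3.27 and 3.17 (-0.044, -0.085 to -0.0033), but its log2 difference was -0.0061 as a mean over cells, 0.011 in 1 thinning and -0.024 as the mean of 20 thinnings, and 0.098 in the shallowest quartile. The ratio of Eef1b2 to Snhg6 was 4.80 and 4.61 (-0.059, -0.14 to 0.027).

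The 5 transcripts belong to a longer list of translation genes. Of 190 listed genes of ribosomal proteins, translation factors, tRNA synthetases, mRNA-binding proteins and snoRNA hosts, 10 were analysed, the 5 included. None of the 10 was 1.2-fold higher or lower, beside 5.87% and 14.4% of all genes. The median log2 ratio of the 10 was -0.0058, and -0.023 for the 9 protein-coding ones, beside -0.095 over all genes. With library totals Eif5b, a GTPase that joins the ribosomal subunits, had 5988 and 5726 UMIs (log2 -0.055, -0.11 to -0.0023). Eif4e2, a cap-binding protein, had 3169 and 3005 (-0.067, -0.14 to 0.0055). Log2 ratios rise by 0.0916 with TMM factors, 0.0809 with median-of-ratios factors and 0.0632 with totals without the 5 transcripts and Btg2. Eif5b then lies above 0 with each, and Eif4e2 with TMM and median-of-ratios factors. The initiation factor Eif2d had 934 and 945 UMIs. The synthetase genes Dars, for aspartate, and Farsb, for phenylalanine, had 1812 and 1766 and 932 and 911.

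**Figure D2:**
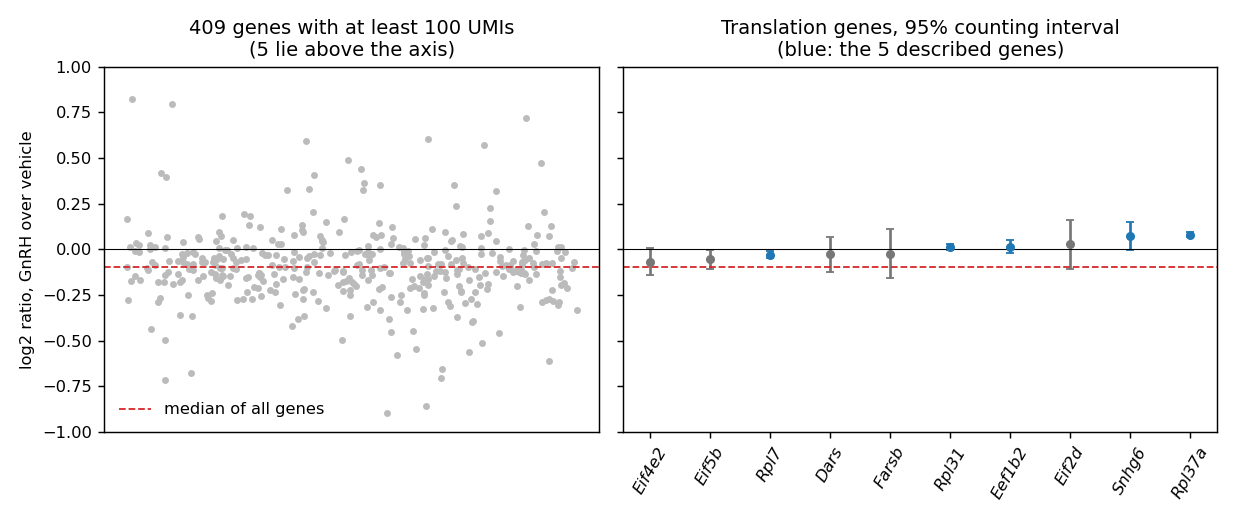
The left panel plots the log2 ratio of the GnRH to the vehicle share of UMIs for 409 genes (points, random horizontal position; 5 genes lie above the axis), and the right panel the 10 analysed translation genes with 95% counting intervals (blue, the 5 genes described). Every translation gene sits above the dashed median of all genes at -0.095, as do 49.9% of all genes, and Rpl37a is highest at 0.08.

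To examine whether the levels depended on how deeply a cell was sampled, cells of each library were divided into quartiles of UMIs per cell. From the shallowest to the deepest quartile the Rpl7 share was 3.89%, 3.87%, 3.67% and 3.40% after vehicle and 4.003%, 3.73%, 3.62% and 3.26% after GnRH. It was lower at each step in both libraries, by less than the counting interval at the first step after vehicle. Within the shallowest quartile, however, cells with under 300 UMIs had 3.44% (3.27 to 3.62) after vehicle and 3.75% (3.49 to 4.02) after GnRH, so the share did not fall steadily over the whole range. Rpl37a had 9.80%, 9.63%, 9.74% and 10.3% after vehicle and 10.03%, 10.02%, 10.1% and 11.3% after GnRH. When quartiles were set by the UMIs of the other genes, a choice made after seeing the data, the deepest minus the shallowest quartile was -0.393 percentage points for Rpl37a after vehicle in place of 0.523, and 0.479 after GnRH in place of 1.23. For Rpl7 the same differences were -0.789 and -0.935, in place of -0.486 and -0.744. The Rpl7 share of the deepest quartile was thus below that of the shallowest with both orderings, and the Rpl37a difference kept its sign after GnRH but not after vehicle.

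The difference between treatments was also read within quartiles. These were cut in each library on its own, so depth was not matched between treatments. In the shallowest quartile, 219 of 494 vehicle-treated cells and 108 of 468 GnRH-treated cells had under 300 UMIs. The GnRH to vehicle ratio of the Rpl37a share was 1.02, 1.04, 1.04 and 1.09 from the shallowest to the deepest quartile. For Rpl7 it was 1.03, 0.966, 0.986 and 0.958. With these totals Rpl37a was higher after GnRH in 4 of 4 quartiles and Rpl7 lower in 3 of them. The other scalings raise every ratio by 1 factor each, and Rpl7 then lay above 1 in each quartile, from 1.02 to 1.10 with TMM factors, from 1.01 to 1.09 with median-of-ratios factors and from 1.001 to 1.08 with the reduced totals. The share of Rpl31 stayed between 4.25% and 4.39% in all quartiles of UMIs per cell of both libraries. With quartiles set by the UMIs of the other genes it did not. It was then 4.52%, 4.47%, 4.29% and 4.15% after vehicle and 4.47%, 4.37%, 4.28% and 4.31% after GnRH.

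**Figure D3:**
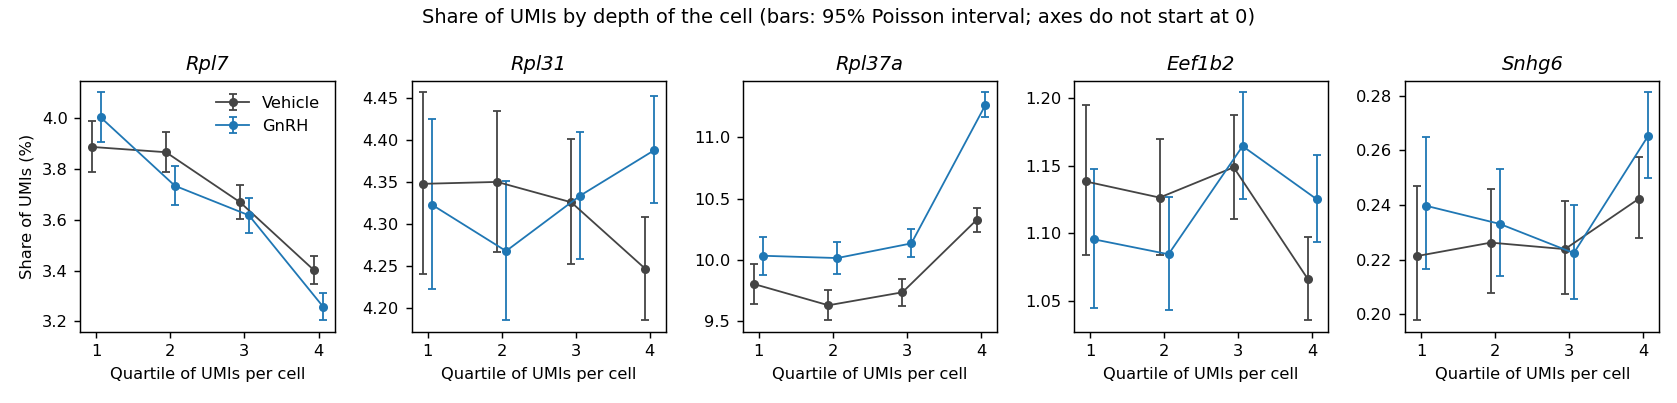
Share of UMIs (y axis, percent, not starting at 0) of each transcript in quartiles of UMIs per cell (x axis, 1 is the shallowest) for the vehicle (grey) and GnRH (blue) libraries, with 95% Poisson intervals. Between quartiles the Rpl7 share is lower at each step, from 3.89% to 3.40% after vehicle and from 4.003% to 3.26% after GnRH, and Rpl37a after GnRH reaches 11.3% in the deepest quartile.

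To investigate heterogeneity between SCs, the squared coefficient of variation (CV) of each transcript was divided by the value expected from counting and from the UMI totals of the cells. A value of 1 means no spread beyond these. In vehicle-treated cells Rpl37a had 1.52, Snhg6 1.27, Eef1b2 1.19, Rpl31 1.10 and Rpl7 1.02, and the median gene had 1.07. In GnRH-treated cells the same order held, with 1.73, 1.39, 1.25, 1.18 and 0.887, and a median gene of 1.07. Rpl37a was the only one of the 5 at 1.5 or above. Of 344 genes after vehicle 5.81% reached this value, and of 342 after GnRH 6.73%, with genes from a mean of 0.1 UMI per cell included. Among other abundant genes, Cntnap5a (2.63 and 2.90), Scg2 (2.40 and 2.55), Igfbp2 (1.88 and 1.69) and Ptma (1.58 and 1.64) also reached it. Cox5b did not (1.27 and 1.21). The expectation assumes the same share at every depth, and the Rpl7 share differed between depth quartiles.

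At an equal 300 UMIs per cell, each transcript had more spread than counting gives. Averaged over 20 thinnings, the variance was 2.88 and 2.83 times the counting variance for Rpl37a in vehicle-treated and GnRH-treated cells, 1.57 and 1.51 times for Rpl7, and 1.36 and 1.39 times for Rpl31. The CV left after counting was 0.239 and 0.230 for Rpl37a, 0.222 and 0.211 for Rpl7, and 0.163 and 0.170 for Rpl31. Over the thinnings the Rpl31 values, 0.141 to 0.183 and 0.153 to 0.184, stayed below those of Rpl7, 0.203 to 0.233 and 0.201 to 0.225, whereas without thinning Rpl7 had the lowest value of the 3. For Eef1b2 the remaining CV was 0.284 and 0.280. For Snhg6, with a mean of 0.682 and 0.715 UMI per thinned cell, it was 0.402 and 0.473, and ran from 0.281 to 0.488 and from 0.318 to 0.596 over the thinnings. Thinning evens the counts but not the shares, so a share that differs with the depth of the cell, as that of Rpl7 did between quartiles, remains in these values.

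**Figure D4:**
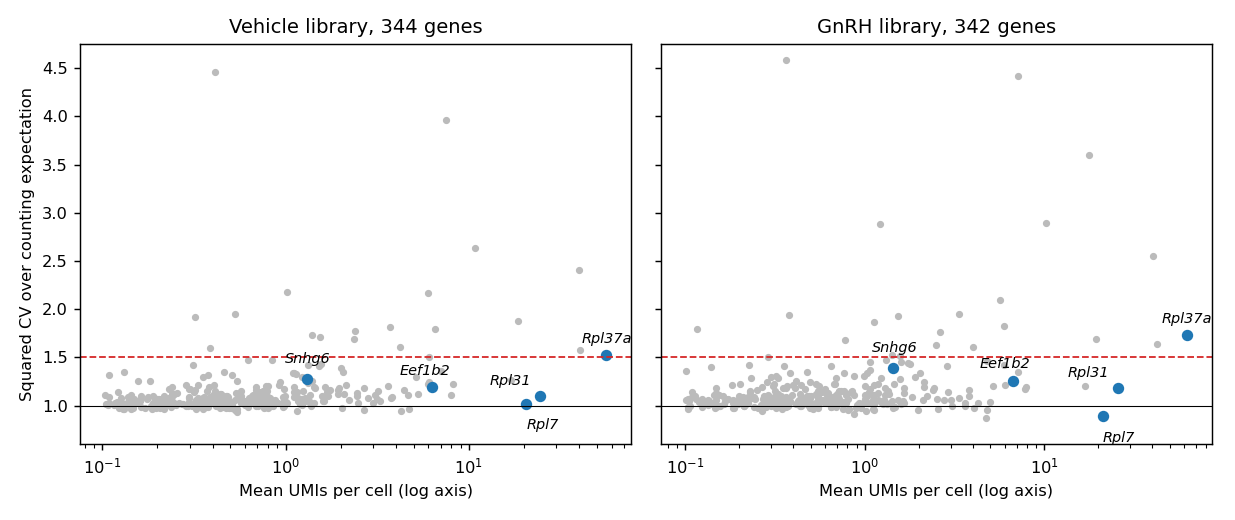
Squared CV over the counting expectation (y axis) against mean UMIs per cell (log x axis) for genes with a mean of at least 0.1, with the 5 transcripts in blue and the dashed line at 1.5. Rpl37a lies at 1.52 after vehicle and 1.73 after GnRH, and Rpl7 at 1.02 and 0.887.

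To describe how far the transcripts varied together, Pearson correlations over cells were computed at 300 UMIs and averaged over 20 thinnings. Thinning to a fixed total makes the values compete, so counting alone gives correlations between -0.0706 and -0.0051 in vehicle-treated cells and between -0.0721 and -0.0052 in GnRH-treated cells. All 10 pairs lay above their counting value in both libraries, with medians of 0.136 and 0.103. Pairs of other genes were not set against their counting values, so whether this is particular to these transcripts was not tested. Rpl31 with Rpl37a gave the highest value, 0.243 after vehicle (1773 cells) and 0.258 after GnRH (1781 cells). Rpl37a with Eef1b2 gave 0.230 and 0.186, and Rpl7 with Rpl37a 0.219 and 0.108. Pairs with Snhg6 did not pass 0.1 at this depth. When depth was set by the UMIs of the other genes, the medians were 0.248 and 0.198, and Rpl37a with Snhg6 gave 0.159 and 0.123. At 500 UMIs the medians were 0.206 and 0.147, and Rpl37a with Snhg6 gave 0.117 and 0.0678. Without thinning the values ran from 0.269 to 0.815 after vehicle and from 0.295 to 0.810 after GnRH, with depth shared by every pair. These correlations describe cells of 1 library each.

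**Figure D5:**
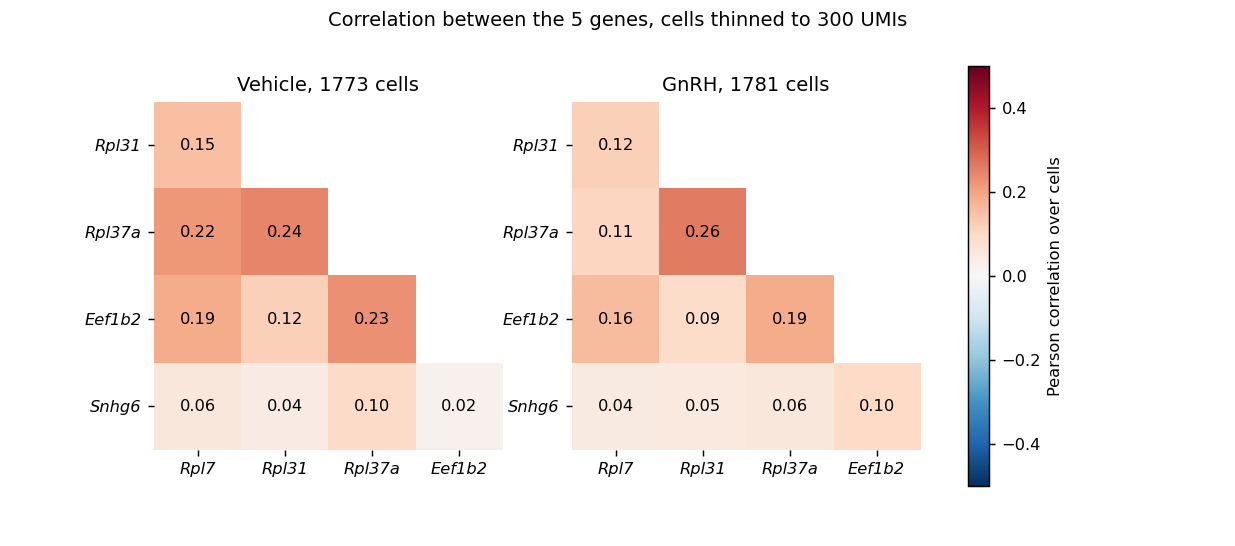
Pearson correlation over cells between each pair of transcripts (colour scale) after thinning to 300 UMIs, averaged over 20 thinnings, for the vehicle and GnRH libraries. Rpl31 with Rpl37a is the highest pair in both, at 0.243 and 0.258.

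A pair of GnRH-treated cells, picked out after their values were seen, stood apart from the rest. In a cell with 319 UMIs from 84 genes, Rpl7 took 53 UMIs or 16.6% (12.7 to 21.2), where the next highest cell had 8.03%. Eef1b2 took 25 UMIs or 7.84%, where the next had 3.70%, while Rpl37a took 5.96%. Scg2, a granin of secretory granules, had 4 UMIs in that cell or 1.25%, against 6.78% of the GnRH library. In another cell with 701 UMIs, Snhg6 took 23 UMIs or 3.28% (2.09 to 4.88), where the next had 1.88%, and the predicted gene Gm15389 had 13 of the 17 UMIs of the whole GnRH library. Without both cells the Rpl7 with Eef1b2 correlation after GnRH was 0.114 in place of 0.159, that of Rpl7 with Snhg6 was 0.018 in place of 0.045, and the median of the 10 pairs was 0.0975. Averaged over 20 thinnings, the spread of Rpl7 was then 1.44 in place of 1.51, and that of Snhg6 was 1.09 in place of 1.16, beside 1.11 after vehicle. The remaining Snhg6 CV after GnRH was 0.335 without both cells and 0.473 with them, beside 0.402 after vehicle.

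The genes whose levels followed the ribosomal protein transcripts most closely were sought among the 93 other genes with at least 0.5 UMI per thinned cell. The 5 with the highest correlation with the summed Rpl7, Rpl31 and Rpl37a UMIs, by the lower of the 2 libraries, were Cntnap5a (0.0561 and 0.0878), Itm2c (0.0434 and 0.0405), Mgat5 (0.0312 and 0.0437), Tns1 (0.0349 and 0.0209) and Adipor1 (0.0165 and 0.0401). These values came from 1 thinning, and their order was not checked over repeated thinnings. No gene reached 0.1 in both libraries. Counting alone gave values below 0 for each of these, such as -0.0641 and -0.0613 for Cntnap5a. Ranked by the correlation minus its counting value, a choice made after seeing the data, Cntnap5a (0.120 and 0.149) and Itm2c (0.0711 and 0.0670) stayed first and second, and Myeov2 (0.0900 and 0.0656) came next, ahead of Mgat5, Adipor1 and Tns1.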

How the data were processed

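The authors deposited raw UMI counts per gene and cell, made with Cell Ranger 1.3 against mm10 per the submitters' processing notes, for 1 vehicle and 1 GnRH library of called cells. The annotation, use of strand and treatment of multiply mapped reads were not given in the sources used here. The table analysed held the first 1068 of 27998 listed genes. Of these, 1062 could be placed, all on chromosome 1, and a cut-off row at the end was not used. Shares are of the UMIs of these genes. Cells were numbered and not named by barcode, so barcodes shared between the libraries could not be counted. No doublet caller was run, and leaving out the 5% of cells with most UMIs was the alternative.

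UMIs were summed per library with exact Poisson intervals. Ratios are GnRH over vehicle with exact conditional binomial intervals, and shares of cells have exact binomial (Clopper-Pearson) intervals, all at 95% and for counting error only. Where a ratio or spread was counted across genes, a minimum of 100 UMIs over both libraries or a mean of 0.1 UMI per cell was set. Thinning to 300 UMIs, with 20 repeats for correlations, gave equal depth. Python 3.11.15, numpy 2.4.6, scipy 1.17.1, pandas 2.3.3, R 4.3.3 and edgeR 4.0.16 (TMM factors only) were used, and the scripts were checked on simulated data.

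Alternatives were TMM and median-of-ratios scaling, totals without the 5 genes and Btg2, means over cells, other minimums and depths, and left-out cells. The counts of intervals and of biogenesis genes and the quartile ratios under other scalings, the ratios between genes under other weightings of cells, the means and ranges over 20 thinnings, and the values without the cells that stood apart were added after seeing the data. The genes, the gene lists and the choices of comparison were made with earlier results of these data known. Named genes were the 5, the analysed genes of the translation and ribosome biogenesis lists, and Btg2. The 5 genes with the highest correlation with the ribosomal protein sum were also named. Scg2, Myeov2, Gm15389, Igfbp2, Igfbp5, Ptma, Cox5b and the 2 cells that stood apart were named after their values were seen.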

Additional observations from a re-analysis of the deposited data

How the results depend on the processing

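No paired analysis was possible because there was a single library per treatment, so no library could be left out either. Of the main values recomputed under alternatives, 70 stayed within their counting interval or the tolerance set for them, 32 did not, and 3 whose interval had excluded 0 changed sign. These 3 were those of Rpl7, whose log2 ratio was 0.063 with TMM factors, 0.052 with median-of-ratios factors and 0.034 with totals that left out the 5 genes and Btg2. The median of all genes shifted by 0.0916, 0.0809 and 0.0632 under these. The log2 ratios of Rpl31, Rpl37a, Eef1b2 and Snhg6 were 0.10, 0.17, 0.11 and 0.17 with TMM factors and 0.093, 0.16, 0.10 and 0.15 with median-of-ratios factors. With the reduced totals Rpl31, Rpl37a and Eef1b2 gave 0.075, 0.14 and 0.078. Rpl37a gave 0.067 as a mean over cells, 0.066 without the 5% of cells with most UMIs and 0.06 in 1 thinning. Eef1b2, whose interval held 0, also changed sign, from 0.015 to -0.0043 as a mean over cells and to -0.025 in 1 thinning. After thinning, the share of cells with a UMI was 100% for Rpl7 and Rpl31 in both libraries, 95.04% and 95.06% for Eef1b2, and 47.5% and 49.7% for Snhg6. The spread after 1 thinning was 1.55 and 1.55 for Rpl7 and 2.90 and 2.81 for Rpl37a, and 1.47 and 2.84 in GnRH-treated cells without the 2 cells that stood apart. The median correlation was 0.248 and 0.198 with the UMIs of the other genes as depth, and 0.206 after vehicle at 500 UMIs. The Rpl37a share after vehicle reversed its difference between depth quartiles, to -0.393 percentage points, with quartiles from the other genes. The cause of these changes was not tested. The totals cover 3.81% of the listed genes, which limits the depth per cell.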

Other observations

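Of 7 ribosome biogenesis genes analysed, whose products act in making ribosomal subunits, 1 (Wdr12) was at least 1.2-fold lower after GnRH with library totals, beside 14.4% of all genes, and none at least 1.2-fold higher, beside 5.87%, whereas with TMM or median-of-ratios factors 1 (Nop58) was higher, beside 7.58% and 7.09%, and none lower, beside 6.60% with each, and with totals without the 5 transcripts and Btg2 there was 1 of each, beside 6.85% and 7.58%. With library totals Nop58, a core protein of box C/D snoRNPs, had 1856 vehicle and 2127 GnRH UMIs (log2 ratio 0.21, 0.12 to 0.30), and Wdr12, needed for large-subunit maturation, had 689 and 544 (-0.33, -0.50 to -0.17). Also with library totals, the log2 ratios of Nifk, Ncl, Rrs1, Imp4 and Wdr75 were 0.0050, -0.050, -0.062, -0.12 and -0.17. The median of the 7 was -0.062, beside -0.095 over all genes. With each of the other scalings Ncl, Rrs1 and the median of the 7 lie above 0, and Imp4, Wdr75 and Wdr12 stay below 0.

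In 1 thinning to 300 UMIs, Scg2 was the 1 gene of 93 whose correlation with the summed ribosomal protein UMIs was at or below -0.2 in both libraries. It was -0.326 after vehicle and -0.324 after GnRH, where counting alone gave -0.127 in each. With depth set by the remaining genes, also in 1 thinning, the correlation was -0.142 (1636 cells) and -0.0943 (1618 cells).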
